A study of Mus musculus with 8 samples.

Results

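The Meis, Pbx, Pknox and Hoxb13 homeobox genes were followed in the neonatal mouse heart, in RNA from purified cardiomyocytes of C57BL6/J pups on postnatal day 2. The genes were taken by symbol, Meis1, Meis2, Meis3, Pbx2, Pbx3, Pknox1, Pknox2 and Hoxb13, which are 8 of the 48440 entries of the count table. Each of 4 litters gave 1 male and 1 female heart, so that there are 8 libraries, 4 per sex and 2 per litter. The labels name no treatment, transgene or genotype other than the strain, and all groups share strain, age and cell type. The method of purifying the cells is not given in the sources used here, and the hearts are separate animals.

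Meis, Pbx and Pknox proteins belong to the TALE class of homeodomain factors, which carry a short insertion in the DNA-binding fold. Meis and Pknox proteins bind Pbx proteins, which holds the complex in the nucleus, and the pairs bind DNA together with Hox proteins and other factors. In the mouse heart Meis1 is known as a factor that favours withdrawal of cardiomyocytes from the cell cycle after birth, through inhibitors of cyclin-dependent kinases, and Hoxb13 is known as a partner of Meis1 in this role, acted on by the phosphatase calcineurin.

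Libraries held between 14226342 and 24910243 counts, and 13771 genes had enough counts to be tested. Of the 8 homeobox genes 7 were tested, and Hoxb13 had no count in any library. Levels are given as CPM, the usual scaling of counts to a common library total, here with totals adjusted by TMM, a scaling between libraries based on genes that change little. Counts of 8 marker genes of cardiomyocytes summed to between 54378 and 69796 CPM. The summed markers of other cell types were far lower, with 32.1 to 242 CPM for 7 fibroblast genes, 11.6 to 118 CPM for 6 endothelial genes, 415 to 1120 CPM for 6 mural genes and 76.2 to 403 CPM for 4 erythroid genes. Sums were 1.56 to 3.89 CPM for 4 epicardial genes, 3.02 to 8.46 CPM for 4 macrophage genes and 10.1 to 13.9 CPM for 2 neural and Schwann cell genes. Adgre1, a marker of macrophages, was at or under 3 counts in every library. Litter 3 stood apart in several of these sums, which are given beside the results they touch.

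Positions are on GRCm38, which is the same assembly as the mm10 build named in the submitters' processing notes. The 8 genes are all annotated as protein-coding. Meis1 lies at chr11:18879817-19018985 on the minus strand and Meis2 at chr2:115863064-116065839 on the minus strand, while Meis3 lies at chr7:16175090-16186504 on the plus strand. Pbx2 is at chr17:34591266-34597400 on the plus strand and Pbx3 at chr2:34171457-34373142 on the minus strand. Pknox1 is at chr17:31564734-31607693 on the plus strand, Pknox2 at chr9:36890982-37147407 on the minus strand and Hoxb13 at chr11:96194316-96197447 on the plus strand. Exons of Meis1 share 1029 bases with Gm37818 on the same strand, which had 53 to 161 counts per library, and 896 bases with the antisense gene Gm16140, which had 0 to 7 counts. Exons of Pbx2 share 227 bases with Gpsm3, which had 4 to 19 counts. Exons of Pknox1 share 155 bases with an antisense gene. How the authors assigned reads in these stretches, and whether strand was used in counting, is not given in the sources used here.

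Promoter sequence is shown for Meis1, the gene with the smallest spread over libraries, and for the 2 genes that passed the test between litters, Meis2 and Pbx2. The sequences come from RefSeq on GRCm38.p6, which gave promoter windows of 300 bases for Meis1, Meis2, Meis3 and Pbx2. Each line is the longest stretch before the RefSeq start that holds no annotated exon, 5′ to 3′ on the strand of the gene. The Meis1 stretch is chr11:19018986-19019219, from 250 to 17 bases before the start. The Meis2 stretch is chr2:116064722-116064801, from 182 to 103 bases before the start. The Pbx2 stretch is chr17:34592009-34592258, from 250 to 1 base before the start. The windows of Meis2 and Pbx2 lie inside the annotated genes, because other transcripts of these genes begin further upstream. Capitals in the Meis2 line mark a TATA motif.
Meis1: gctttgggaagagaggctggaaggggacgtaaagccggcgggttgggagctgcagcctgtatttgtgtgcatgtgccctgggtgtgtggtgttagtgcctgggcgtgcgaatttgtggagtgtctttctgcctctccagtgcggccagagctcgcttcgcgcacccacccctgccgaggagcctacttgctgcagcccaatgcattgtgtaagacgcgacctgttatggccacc
Meis2: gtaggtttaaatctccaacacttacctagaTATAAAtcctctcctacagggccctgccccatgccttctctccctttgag
Pbx2: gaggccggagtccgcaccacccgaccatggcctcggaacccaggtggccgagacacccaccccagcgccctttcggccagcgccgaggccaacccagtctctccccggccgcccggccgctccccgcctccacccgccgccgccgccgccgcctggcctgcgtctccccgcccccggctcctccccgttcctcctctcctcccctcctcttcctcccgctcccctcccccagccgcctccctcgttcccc

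The Pbx2 window was rich in G and C, with 76% GC and 29 CpG dinucleotides in 300 bases. The Meis1 window had 58.3% GC and 15 CpG dinucleotides, the Meis3 window 66.7% and 21, and the Meis2 window 51% and 13. The windows were searched on both strands for 4 motifs, which were the MEIS core TGACAG, the composite PBX and HOX motif TGATNNAT, the HOXB13 motif CCAATAAA and the TATA motif TATAAA. Of 32851 promoter windows of the same length, 19.2% held TGACAG, 8.85% TGATNNAT, 1.12% CCAATAAA and 13.6% TATAAA. The Meis2 window held TATAAA 152 bases before the start and CCAATAAA on the opposite strand at 213 bases before the start, which is outside the stretch shown. The windows of Meis1, Meis3 and Pbx2 held none of the 4 motifs as spelled here.

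Transcript levels of the 8 genes were first compared with each other, which needs values per length, so CPM were divided by the kilobases of annotated exon. Pbx2 was highest at 11.9 ± 1.83 CPM per kb (SD, n = 8), followed by Meis1 at 8.31 ± 0.30, Pbx3 at 3.90 ± 0.35, Meis2 at 3.72 ± 0.42, Pknox1 at 2.54 ± 0.13, Meis3 at 1.41 ± 0.21 and Pknox2 at 0.115 ± 0.031 CPM per kb. Each of these genes was above the next in 8 of 8 libraries, except that Pbx3 was above Meis2 in 6 of 8, so these neighbours were not separated beyond their spread. The order was the same when the longest annotated transcript gave the length, with 14.1 CPM per kb for Pbx2, 11.6 for Meis1, 8.34 for Pbx3 and 8.15 for Meis2. Meis1, the paralog tied to cell cycle exit, was the highest of the 3 Meis genes, and Pknox1, a broadly used partner of Pbx proteins, stood far above Pknox2.

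**Figure D1:**
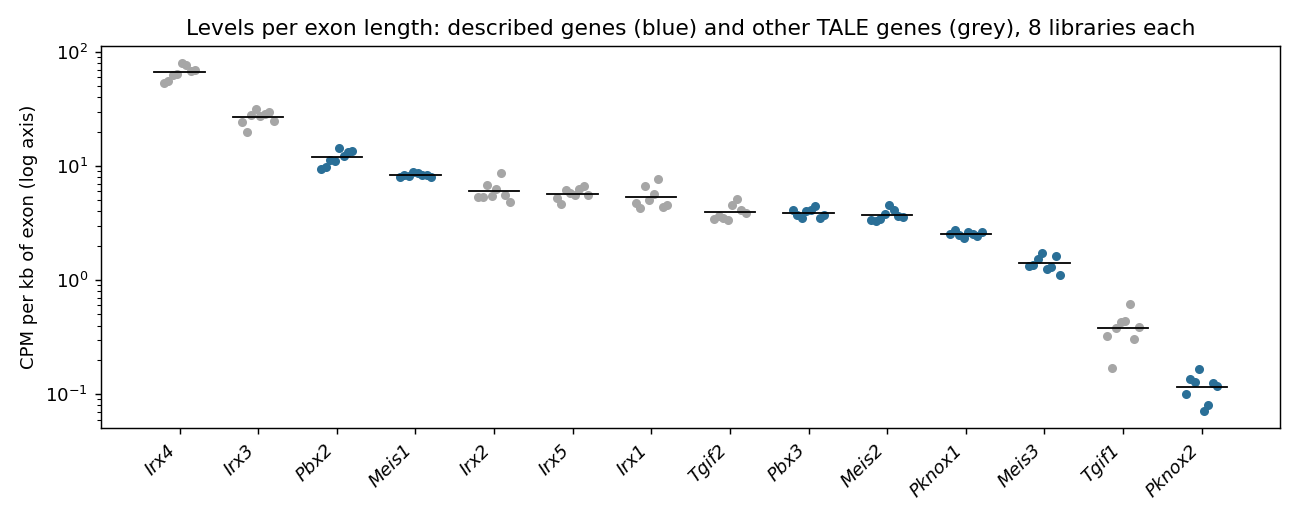
Levels of the homeobox genes and of other TALE genes in CPM per kilobase of annotated exon on a log axis, with 1 point per library. Genes at 0 in any library, Hoxb13 among them, are not drawn, and Pbx2 and Meis1 lie above the other Meis, Pbx and Pknox genes, all drawn in blue.

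Among the other TALE genes, Irx4 had 66.1 ± 9.25 and Irx3 26.9 ± 3.69 CPM per kb. Both are Iroquois factors that act in the patterning and conduction of the ventricle. Pbx4 had at most 3 counts in a library.

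Hoxb13 had 0 counts of 174963689, which allows up to 3 counts, or 0.0171 CPM over all libraries and 0.120 to 0.211 CPM within a library (counting error only). The absence of counts extended over the Hox family. Of the 38 other Hox genes of the table, 25 had no count in any library, 13 had counts, and none had enough to be tested. Only Hoxa5 and Hoxc6, named here after their values were seen, passed 3 counts in a library, and their highest count was 4. Transcripts of the Hox clusters were thus at or near the limit of detection at this depth in the same libraries in which the TALE genes were measured.

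Meis1 had the narrowest spread of the 7 tested genes. Its level was 83.6, 85.6, 90.8 and 87.5 CPM in the males of litters 1 to 4 and 87.0, 92.7, 88.5 and 84.3 CPM in the females, from 1286 to 2116 counts. The sexes overlap, and both libraries of litter 3 lie above those of litters 1 and 4 by a small margin, while litter 2 overlaps litter 3. The mean was 87.5 ± 3.13 CPM (SD, n = 8), which is a coefficient of variation of 3.58%, where counting error alone gives 2.29%. The median over the 500 tested genes nearest in level was 9.61%. Pknox1 was similarly even, at 17.6 ± 0.91 CPM, with a coefficient of variation of 5.17% against 5.09% from counting error alone.

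Meis2, a paralog of Meis1, was highest in litter 3. It had 40.2, 41.2, 54.4 and 44.1 CPM in the males of litters 1 to 4 and 39.9, 45.4, 49.8 and 43.2 CPM in the females. Both libraries of litter 3 lie above all 6 others, and both of litter 1 lie below all 6 others. Pbx2, a partner of Meis and Hox proteins, had 34.4, 41.0, 52.5 and 48.8 CPM in the males and 35.5, 40.7, 44.3 and 49.7 CPM in the females. Here litter 1 lies below every other library, and litters 3 and 4 overlap above litter 2.

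Pbx3 had 24.9, 21.5, 25.3 and 21.2 CPM in the males of litters 1 to 4 and 22.7, 24.6, 27.5 and 23.0 CPM in the females. Litter 3 held the 2 highest values, by a small margin for the male, and the other litters overlap. Meis3, the lowest of the Meis paralogs, had 4.22, 4.91, 3.99 and 5.14 CPM in the males and 4.32, 5.49, 4.13 and 3.53 CPM in the females on 60 to 122 counts. The sexes overlap, litters 1, 2 and 3 are apart from each other with litter 2 highest, and litter 4 holds the lowest value and the second highest. Pknox2 had 1.04, 1.33, 0.738 and 1.28 CPM in the males and 1.40, 1.71, 0.826 and 1.22 CPM in the females. These values rest on 12 to 38 counts, and both libraries of litter 3 are the lowest.

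**Figure D2:**
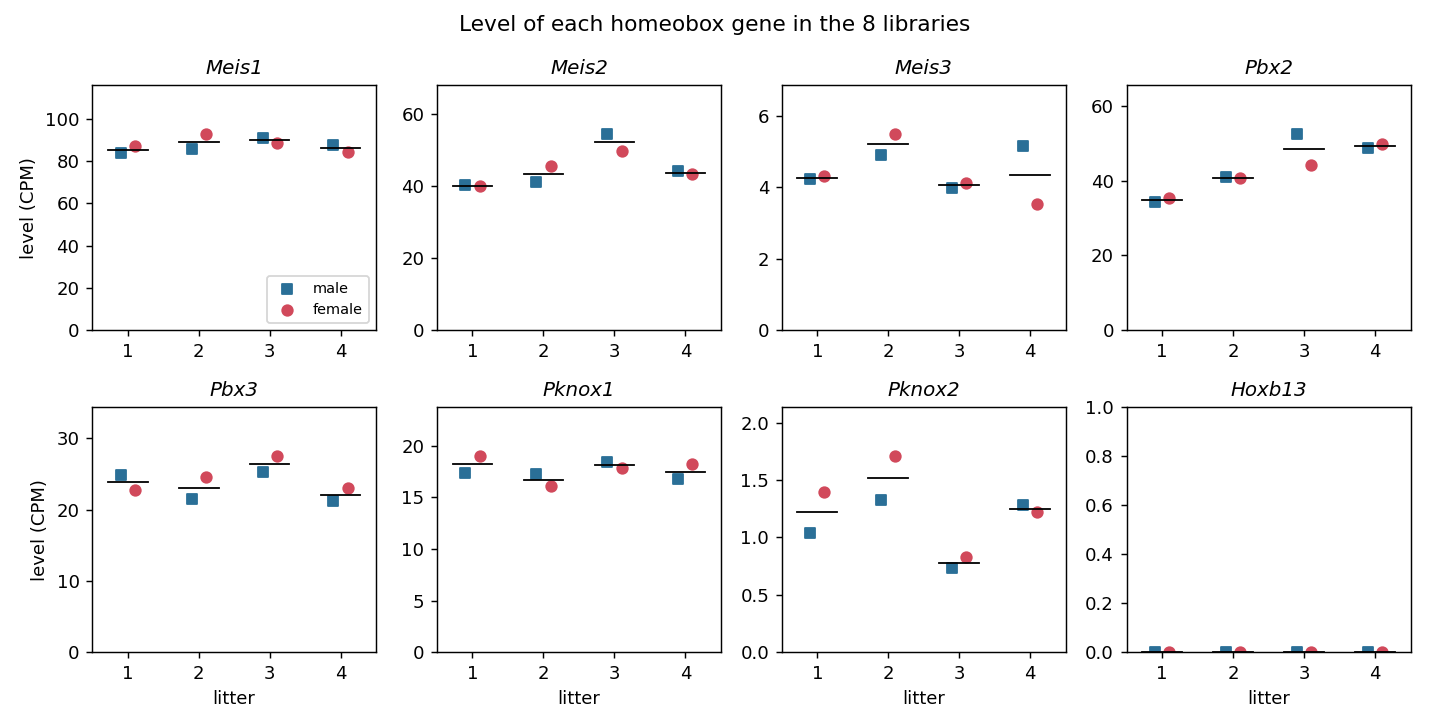
CPM of each of the 8 homeobox genes by litter, with 1 point per library, squares for males, circles for females and a line at the mean of a litter. Hoxb13 is at 0 throughout. Meis1 and Pknox1 are nearly flat, Meis2 is highest in litter 3, and Pbx2 is lowest in litter 1.

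The comparison of sexes asked whether male and female cardiomyocytes differ in these transcripts. None of the 7 tested genes passed edgeR's quasi-likelihood test with Benjamini-Hochberg adjustment over all genes, in which 0.0436% of genes were called (6 of 13771). The 4 males averaged 86.9 ± 3.07 CPM of Meis1 and the 4 females 88.1 ± 3.52 CPM (SD). Male over female this is -0.02 on the log2 scale, with a 95% interval of -0.17 to 0.13, or 0.889-fold to 1.09-fold. For the other genes the log2 fold change was 0.01 (-0.23 to 0.26) for Meis2, 0.06 (-0.34 to 0.46) for Meis3, 0.05 (-0.27 to 0.37) for Pbx2, -0.07 (-0.29 to 0.15) for Pbx3 and -0.03 (-0.22 to 0.17) for Pknox1. Pknox2, with its few counts, had the widest interval, -0.89 to 0.40 around -0.25. The unadjusted p-values of the 7 genes in the edgeR test were 0.417 to 0.896, none of them under 0.05, and DESeq2 called none either. The intervals above are from the fit without litter. With litter as a block the calls over all genes rose to 29 (0.211%), and the homeobox genes called remained 0. All 7 intervals were narrower with the block, with -0.14 to 0.10 for Meis1, -0.13 to 0.14 for Meis2 and -0.09 to 0.18 for Pbx2.

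**Figure D3:**
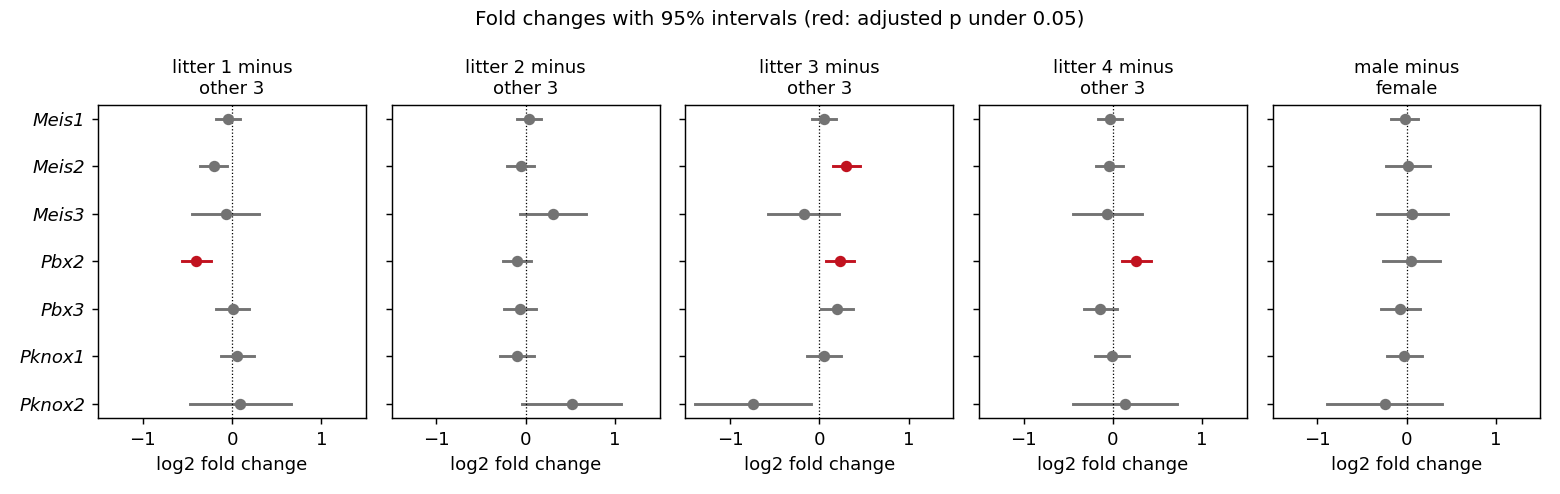
Log2 fold change with its 95% interval for each tested homeobox gene, male over female and each litter over the mean of the other 3. The differences called after adjustment, in red, are Meis2 in litter 3 and Pbx2 in litters 1, 3 and 4.

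The comparison of litters asked whether the 4 litters differ, with sex in the model. Of the 7 genes 2 passed, Meis2 and Pbx2, where 32.1% of all tested genes passed (4427 of 13771), so the count is near the background. The median over the 7 genes of the log2 range between litters was 0.36, and over all tested genes it was 0.37. Meis2 ran from 40.0 ± 0.26 CPM in litter 1 to 52.1 ± 3.28 CPM in litter 3 (SD, n = 2), a 1.30-fold range (edgeR, adjusted p = 0.0230). Pbx2 ran from 34.9 ± 0.80 CPM in litter 1 to 49.2 ± 0.67 CPM in litter 4, a 1.41-fold range (adjusted p = 0.00447). The adjusted p-values of the others in the edgeR test were 0.758 for Meis1, 0.717 for Pknox1, 0.464 for Meis3, 0.233 for Pbx3 and 0.184 for Pknox2. The Meis2 call rests on litters 1 and 3: without litter 3 its adjusted p was 0.491 and without litter 1 it was 0.0810, and it was lost without the male of litter 1 (0.0818), the female of litter 1 (0.0806) or the male of litter 3 (0.212). The Pbx2 call was lost without litter 1 (adjusted p = 0.0966) and held without litter 3 (0.00607).

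Setting each litter against the mean of the other 3 showed where these differences lay. The 4 comparisons share libraries, so they do not stand apart from each other. In litter 3, where 28.3% of all genes were called and 13.6% were called higher, Meis2 was 1.23-fold higher (log2 0.30, SE 0.07, edgeR adjusted p = 0.0072) and Pbx2 1.18-fold higher (log2 0.23, SE 0.07, adjusted p = 0.0330). Pbx3 had a log2 difference of 0.20 in litter 3 (adjusted p = 0.101, and 0.0489 with library size alone) and Pknox2 one of -0.74 (adjusted p = 0.0819). In litter 1, where 13.3% of genes were called and 5.41% were called lower, Pbx2 was lower by 0.40 on the log2 scale, at 0.758 times the mean of the others (SE 0.08, adjusted p = 0.00526), and Meis2 had a log2 difference of -0.21 (adjusted p = 0.0753). In litter 4, where 10.5% of genes were called and 4.71% were called higher, Pbx2 was 1.20-fold higher (log2 0.26, SE 0.07, adjusted p = 0.0413). In litter 2, where 4.18% of genes were called, none of the 7 genes passed the edgeR test, none had an unadjusted p under 0.05, and DESeq2 called none.

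Meis1 had log2 differences of -0.05, 0.04, 0.05 and -0.04 for litters 1 to 4. Its 95% intervals reached down to -0.183 (litter 1) and up to 0.184 (litter 3). Leaving out the male of litter 3 took the Pbx2 log2 difference in litter 3 from 0.23 to 0.093, and leaving out the female took it to 0.36. The Meis2 call in litter 3 was lost without the male of that litter (adjusted p = 0.155). The Pbx2 call in litter 1 was lost without the male (0.158) or the female (0.0527) of litter 1, and that in litter 3 was lost with DESeq2 (0.0746) and without the males of litters 1 (0.0925), 2 (0.0530), 3 (0.558) or 4 (0.0600). The Pbx2 call in litter 4 was lost in 9 of 13 alternatives, which were scaling by library size alone (adjusted p = 0.125), DESeq2 (0.0883) and leaving out any library but the male of litter 3 (0.0549 to 0.273). The male library of litter 4 had 18.5% of its counts from the mitochondrial genome, where the others had 13.4% to 15.2%. Without this library the Pbx2 log2 difference in litter 4 was 0.31, and without the female of litter 4 it was 0.21, in place of 0.26. The part of the mitochondrial share in this result was not tested.

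Because these cells were measured in bulk, fewer cells of a type and less RNA per cell cannot be told apart. In litter 3, summed markers were 32.1 to 51.5 CPM for fibroblasts against 107 to 242 CPM elsewhere, 415 to 443 CPM for mural genes against 874 to 1120 CPM, most of it Acta2, and 54378 to 57206 CPM for cardiomyocytes against 60412 to 69796 CPM. Endothelial markers had 12.8 to 14.6 CPM in litter 3 and 11.6 to 118 CPM elsewhere, and erythroid markers 142 to 403 CPM and 76.2 to 190 CPM. Epicardial markers had 1.56 to 1.86 CPM in litter 3 and 2.01 to 3.89 CPM elsewhere. In litter 3, 6 of 7 fibroblast, 4 of 6 mural, 4 of 6 endothelial and 1 of 3 tested epicardial markers were called lower, against 14.8% of all genes. In the same litter 1 of 3 tested erythroid markers was called higher, against 13.6% of all genes. Of the 8 cardiomyocyte markers, Myh7 and Nppa were called higher in litter 3 and Myh6 and Actc1 lower. The mural gene Cspg4 had 67.8 to 71.2 CPM in litter 3 and was not lower there. In litter 1, 3 of 7 fibroblast markers were called higher, against 7.86% of all genes, and 1 of 6 mural markers was called higher (Acta2) and 1 lower (Cspg4). Of the 8 cardiomyocyte markers in litter 1, Ryr2 was called higher, Myh7 and Nppa lower, against 5.41% of all genes, and 5 were not called. In litter 4, 6 of 7 fibroblast, 2 of 6 mural (Acta2 and Myh11) and 3 of 8 cardiomyocyte markers (Myh7, Tnni3 and Actc1) were called higher, against 4.71% of all genes. The cardiomyocyte marker Ryr2 and the macrophage marker Cd68, which was the 1 tested of 4, were called lower in litter 4, where 10.5% of all genes were called in either direction. In litter 2, 6 of 6 endothelial, 5 of 7 fibroblast, 3 of 6 mural and 1 of 3 tested epicardial markers were called higher. In that litter 1 of 8 cardiomyocyte markers was called lower, and 4.18% of all genes were called in either direction. The part of these differences in the values of the homeobox genes and of the other lists in the 4 litters was not tested.

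Ratios of counts within a library do not depend on library scaling. Meis2 counts per Meis1 count were 0.600 (male) and 0.563 (female) in litter 3, and 0.458 to 0.513 in the other 6 libraries. Pbx2 counts per Meis1 count were 0.411 and 0.408 in litter 1, 0.480 and 0.439 in litter 2, 0.579 and 0.501 in litter 3, and 0.557 and 0.590 in litter 4, male first. Pknox1 counts per Meis1 count were 0.174 to 0.218, with litter 1 above litters 2 and 3 and overlapping litter 4. The Meis2 ratio was thus highest in both libraries of litter 3, and the Pbx2 ratio was lowest in both libraries of litter 1. The ratios were not tested, and with Meis1 nearly flat they follow the Meis2 and Pbx2 levels given above.

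**Figure D4:**
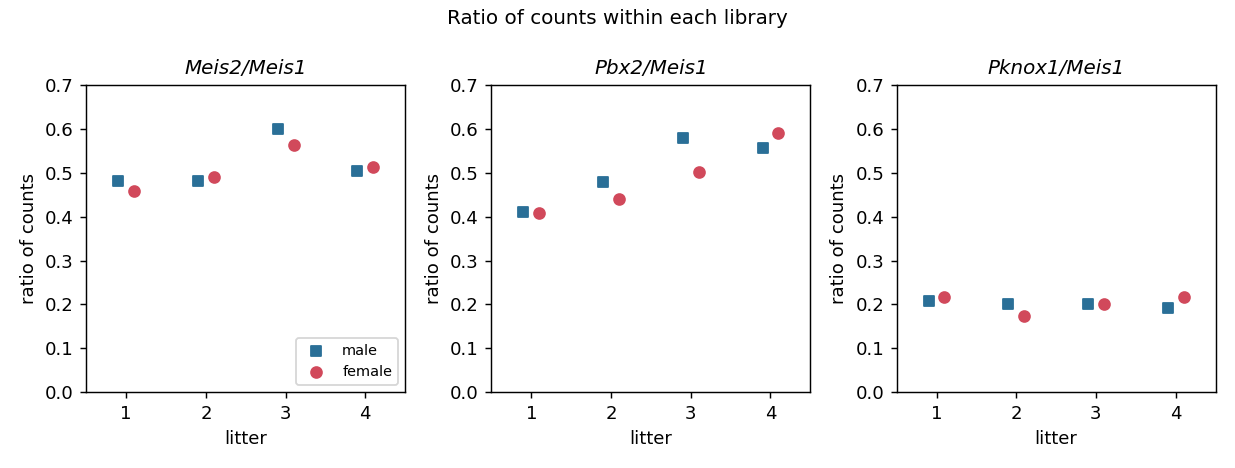
Counts of Meis2, Pbx2 and Pknox1 per Meis1 count in each library, by litter and sex. The Meis2 ratio is 0.600 and 0.563 in litter 3 and at most 0.513 elsewhere.

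Several other TALE genes differed between litters too. Of the 10 described here 7 were tested, and 4 of them passed the litter test (Tgif2, Irx1, Irx3 and Irx4), against 32.1% of all genes, with a median log2 range of 0.52 over the 7. In litter 3 the 4 called were Tgif2, Irx1, Irx2 and Irx4, each of them higher, where 13.6% of all genes were called higher. Irx2 is named after its value was seen. Irx4, a ventricular factor, had 138, 162, 207 and 178 CPM in the males of litters 1 to 4 and 146, 167, 200 and 181 CPM in the females, so both libraries of litter 3 lie above the rest and both of litter 1 below. It was 1.26-fold higher in litter 3 (adjusted p = 0.00107) and lower in litter 1 by 0.36 on the log2 scale (adjusted p = 0.00216, and 0.104 without the male of litter 1). Irx3 was also lower in litter 1, by 0.37 (adjusted p = 0.0199). Without the female of litter 1 the Irx3 log2 difference was -0.23 (adjusted p = 0.395), and without the male it was -0.51. Without litter 3, 2 of the 7 genes passed the litter test, against 13.7% of all genes, and without litter 1 also 2 of 7, against 22.7%. Irx1 lost its call in 11 of 18 alternatives. Irx3 lost its call without the female of litter 1 (adjusted p = 0.340), without litter 1 (0.553) and without a sex term (0.0575). The Tgif2 call was lost without the female of litter 3 (adjusted p = 0.156) or the male of litter 1 (0.0554), with DESeq2 (0.0726) and without litter 3 (0.350). In litter 3 the Tgif2 call was lost without the female of that litter (0.149). The Irx1 call in litter 3 was lost in 6 of 13 alternatives, which were DESeq2 (0.0539) and leaving out the females of litters 1 (0.0745), 2 (0.0627), 3 (0.709) or 4 (0.0543) or the male of litter 4 (0.0698).

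Inhibitors of cyclin-dependent kinases are the genes through which Meis1 is known to act on the cell cycle. Those tied to Meis1 in cardiomyocytes are Cdkn2a, Cdkn2b and Cdkn1a. Cdkn2a and Cdkn2b had 0 to 6 counts per library each and could not be tested. The other 5 of the 7 all passed the litter test, against 32.1% of all genes, with a median log2 range of 0.67, and in both directions. In litter 1, where 7.86% of all genes were called higher, Cdkn1a (0.34), Cdkn2c (0.74) and Cdkn2d (0.34) were higher and Cdkn1c (-0.76) was lower on the log2 scale. In litter 3, where 13.6% of all genes were called higher and 14.8% lower, Cdkn1b was higher (0.50) and Cdkn2c (-0.75) and Cdkn2d (-0.56) were lower. Adjusted p-values in the edgeR test of these 7 differences were 0.000434 to 0.0203. Cdkn1a, also the classic target of p53, had 23.0, 18.7, 18.7 and 17.4 CPM in the males and 22.0, 20.0, 16.4 and 15.7 CPM in the females of litters 1 to 4, so litter 1 holds its highest values. All 4 differences of litter 1 lost their call without its male. There the log2 difference was -0.67 for Cdkn1c and 0.29 for Cdkn2d, and at least 0.30 for Cdkn1a. Without the female of litter 1 the calls of Cdkn1a and Cdkn2d were lost, and without the male of litter 3 that of Cdkn2c in litter 3. The Cdkn2c log2 difference was 0.46 in litter 1 without the male of litter 1, and -0.40 in litter 3 without the male of litter 3. With DESeq2, Cdkn1a lost its call in litter 1 (adjusted p = 0.0648). In the litter test Cdkn1a lost its call in 6 of 18 alternatives, which were DESeq2 (0.0918) and leaving out the male (0.129) or female (0.139) of litter 1, the female of litter 4 (0.0691), litter 1 (0.322) or litter 4 (0.0648). Cdkn1c lost it without the male of litter 1 (0.0873) or litter 1 (0.687), and without litter 3 Cdkn1b (0.960) and Cdkn2d (0.299) lost theirs. Without litter 3 the litter test called 3 of 5, against 13.7% of all genes, and without litter 1 also 3 of 5, against 22.7%.

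Proliferation genes differed widely between the same litters. All 12 of the list passed the litter test, against 32.1% of all genes, with a median log2 range of 2.19. In litter 1, 12 were called higher, against 7.86% of all genes, with a median log2 difference of 1.26. In litter 2, 5 were called higher, where 4.18% of all genes were called in either direction, with a median over the 12 of 0.42. Ccna2 lost its litter 2 call in 6 of 13 alternatives. In litter 3, 12 were called lower, against 14.8% of all genes, with a median of -1.63. Mki67, a marker of cycling cells, had 128 and 108 CPM in litter 1, 67.7 and 79.2 CPM in litter 2, 22.3 and 30.9 CPM in litter 3 and 55.1 and 60.5 CPM in litter 4, male first. Top2a ran from 14.8 to 104 CPM over the same libraries. Meis1 ran from 83.6 to 92.7 CPM over them. Without litter 3, 9 of the 12 passed, against 13.7% of all genes. Litter 3 also held the lower fibroblast and mural marker sums and the called cardiomyocyte markers given above. Their part in the litter 3 values of the TALE, inhibitor and proliferation genes was not tested.

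**Figure D5:**
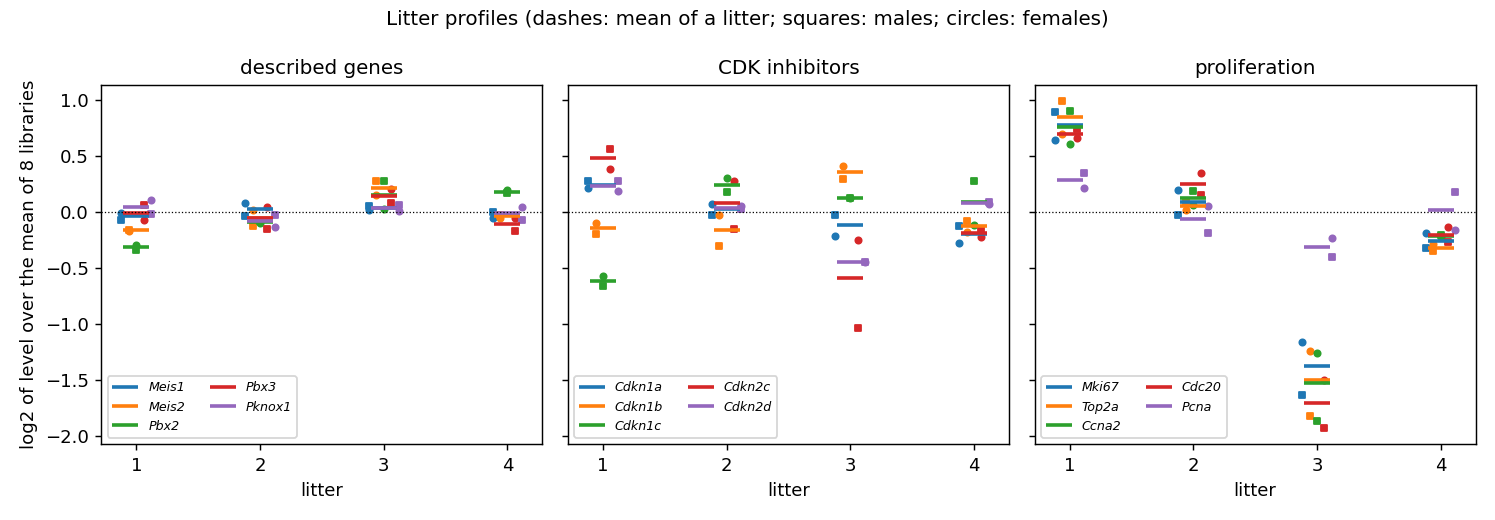
Log2 of level over the mean of the 8 libraries, by litter, for 5 homeobox genes, 5 inhibitors of cyclin-dependent kinases and 5 proliferation genes. Dashes are litter means, squares males and circles females. Mki67, Top2a, Ccna2 and Cdc20 are far below 0 in litter 3, and Meis1 and Pknox1 stay near 0.

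Of 6 calcineurin genes 1 passed the litter test, against 32.1% of all genes, and 3 passed without litter 2, against 33.4%, or without litter 4, against 26.6%. This was Rcan1, an inhibitor of calcineurin whose transcription calcineurin raises (adjusted p = 0.00437), with 71.0 and 65.2 CPM in litter 3 and 81.9 to 103 CPM elsewhere, lower by 0.44 on the log2 scale. Its call in the litter test was lost without the male of litter 3 and without litter 3 (edgeR adjusted p = 0.931). The Rcan1 log2 difference in litter 3 was -0.48 to -0.39 over 13 alternatives. Rcan2, a related inhibitor, passed the litter test in 4 of 18 alternatives. Ppp3ca, a catalytic subunit named after its value was seen, was higher in litter 3 by 0.24 (adjusted p = 0.0236). Of the hypoxia-inducible factors, which Meis1 is known to regulate in blood stem cells, Epas1 passed the litter test (adjusted p = 0.000347). It was 1.53-fold higher in litter 2 and lower by 0.75 on the log2 scale in litter 3, and the litter 2 call was lost without its female (adjusted p = 0.0638), with a log2 difference of 0.38 in place of 0.61. Epas1 is known to be abundant in endothelial cells. Their markers summed to 11.6 and 48.5 CPM in litter 1 and 64.2 and 118 CPM in litter 2, male first. Sums were 12.8 and 14.6 CPM in litter 3 and 21.6 and 18.8 CPM in litter 4. Epas1 had 63.7 and 74.0 CPM in litter 1 and 66.0 and 105 CPM in litter 2. It had 38.5 and 44.0 CPM in litter 3 and 53.6 and 63.2 CPM in litter 4. The part of those cells in the Epas1 result was not tested. Hif1a did not pass the litter test but did in 10 of 18 alternatives. Hif1a was called lower in litter 4, by 0.27 on the log2 scale (edgeR adjusted p = 0.0491), and lost that call in 6 of 13 alternatives. The Hif1a log2 difference was -0.10 without the female of litter 4 and -0.46 without the male.

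Genes with the most similar profile were listed for each homeobox gene, by Pearson's r of log2 CPM over the 8 libraries among 13770 genes. The libraries share litters and the best of many genes is taken, so these values only describe. Meis1 was nearest to Sppl3 (r = 0.95), Hnrnpa0 (0.93) and 1700028J19Rik (0.90). Meis2 was nearest to Rbm15b (0.99), Mbd5 (0.98) and Chrna2 (0.98), and Meis3 to Ano1 (0.95), Pros1 (0.94) and Marcks (0.92). Pbx2 was nearest to Robo1 (0.98), 1600020E01Rik (0.98) and Slc25a39 (0.97), and Pbx3 to Pias1 (0.96), C330013E15Rik (0.96) and Cbll1 (0.95). Pknox1 was nearest to Trappc11 (0.91), BC052040 (0.91) and Mir7-1 (0.90), and Pknox2 to Mylk (0.98), Fam78b (0.98) and Sac3d1 (0.97). None of the 7 homeobox genes had another of them among its nearest 3.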

How the data were processed

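The deposited data are raw counts in whole numbers, 1 table with a column for each of 8 libraries and a row for each gene symbol. Per the submitters' processing notes, STAR 2.7.3a and mm10 were used; the counting program, annotation and strand setting are not given in the sources used here. The labels give poly(A) RNA as the molecule and name a stranded total RNA kit. Counts were tested with edgeR 4.0.16 in R 4.3.3 (filterByExpr on sex, TMM, quasi-likelihood F test, Benjamini-Hochberg adjustment over 13771 genes, threshold 0.05), male minus female without a litter term, then litter (3 coefficients) with sex as a covariate, then each litter against the mean of the other 3. Standard errors are the log2 fold change over the square root of F. DESeq2 1.42.0 and other scalings and filters served as alternatives. Levels per length and promoter stretches used GENCODE exons on GRCm38 and RefSeq (GRCm38.p6). Scripts were tested on simulated data, where the litter test made a larger share of false calls than its threshold allows.

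The members and gene lists were chosen with earlier results of these data known. All 8 members were named; from each list up to 5 genes that passed the sex or litter test, otherwise the 4 with the smallest litter p-value and the 2 with the highest mean CPM; and for likeness the 3 genes with the highest r. Male and female libraries with the same number are littermates per the labels, which pairs them. After removal of the sex means, libraries of the same litter correlated at 0.367 to 0.696 and those of different litters at -0.482 to 0.270. Between same-sex libraries the chi-square per degree of freedom was 10.4 or more, so none repeated another. Intervals cover counting error or the spread between these libraries only. Some genes of the lists are not reported here.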

Additional observations from a re-analysis of the deposited data

How the results depend on the processing

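Alternatives were other scaling, DESeq2, other filters, thinning to the smallest library, leaving out a library or a litter, and the replicate block. With the replicate block the sex comparison called 29 genes, against 6, and no homeobox gene; the block changed no call of a homeobox gene. Of litter comparisons, genes called in litter 2 were 1249 without a filter and 345 with a mean of at least 50 counts, and the litter test called 1898 genes without litter 3. Homeobox genes called were 0 in litter 4 with library size alone and with DESeq2, 1 in litter 3 with DESeq2 and 3 with library size alone, where Pbx3 was added, 0 in the litter test without litter 1 and 1 without litter 3. Leaving out each library gave 5 to 7 genes called for sex, 2964 to 4097 for litter, 359 to 1869 for litter 1, 153 to 752 for litter 2, 1704 to 3791 for litter 3 and 322 to 1302 for litter 4, and 0, 1 to 2, 0 to 2, 0, 0 to 2 and 0 to 1 homeobox genes. The cause was not tested, other than that fewer libraries enter. With library size alone, litter 3 had 2419 genes higher and 1698 lower in place of 1871 and 2032, and litter 4 had 262 and 1501 in place of 648 and 799.

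Sex differences near 0 changed sign, with none of them called. Pknox1 was 0.040 with thinning. Leaving out each library gave log2 sex differences of -0.081 to 0.0071 for Pknox1, -0.090 to 0.066 for Meis2, -0.041 to 0.16 for Pbx2, and -0.029 to 0.18 for Meis3, all of which span 0, and -0.40 to -0.096 for Pknox2 and -0.11 to -0.019 for Pbx3, which do not. The Meis1 differences of a litter from the other 3 also changed sign, at -0.026 to 0.094 for litter 2 and -0.087 to 0.014 for litter 4. Pknox2 has too few counts for the mean of at least 50. Depth limits Pknox2, with 12 to 38 counts, and Hoxb13.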

Other observations

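Each hypoxia-inducible factor had the same order of male and female in every litter. Hif1a was higher in the male in 4 of 4 litters, with a log2 fold change of 0.24 in the fit with litter as a block, and Epas1 was lower in the male in 4 of 4 litters, by 0.33 on the log2 scale. Neither passed adjustment over all genes with edgeR (adjusted p = 0.280 for Hif1a and 0.175 for Epas1). Summed endothelial markers were higher in the female in litters 1, 2 and 3 and in the male in litter 4. Summed fibroblast markers were higher in the male in 4 of 4 litters, and with the block 5 of 7 fibroblast markers were called higher in males and 1 of 6 endothelial markers lower, against 0.211% of all genes called. The part of these cells in the Hif1a and Epas1 values was not tested.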
